A study of Mus musculus with 6 samples.

Results

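Centromere and kinetochore genes were examined in CD8+ T cells sorted from mouse liver. The set was defined by gene name on the array: every name made of Cenp and a lower-case letter, other than Cenpj, and a list of 38 named genes. All 38 were on the array, and the name pattern added Cenpb, Cenpv and Cenpw, so that 41 genes, read by 68 probes, were found among 27339 gene names. The samples came from female C57BL/6 mice of 13 to 14 weeks. The 3 TG samples were from dnTGFβRII mice, which carry a dominant negative TGF-beta receptor II. The 3 TGC3 samples were from dnTGFβRII CXCR3-/- mice, which carry the same transgene and also lack the chemokine receptor CXCR3. There was no sample without the transgene, so both groups carried it and their labels differ in CXCR3. In the published line of this name a Cd4 promoter drives the transgene in T cells, while the labels name no promoter. The labels do not say that the samples of a group came from separate mice, so the spread behind each p-value is that of these samples and may be technical.

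The kinetochore is the protein assembly that joins a chromosome to the spindle in mitosis. It is built on centromeric chromatin, where the histone variant CENP-A replaces histone H3, and the inner kinetochore network binds that chromatin through the cell cycle. The Mis12 and Ndc80 complexes are recruited on top of it and hold microtubules, the Ska complex strengthens that hold, and the spindle checkpoint delays anaphase until every kinetochore is attached. Transcripts of many of these genes are scarce in resting lymphocytes and accumulate in dividing cells, while some subunits have other roles and are made at all times.

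One-colour arrays were used, 1 for each sample. Values are log2 signals after subtraction of the array's 75th percentile, called scaled log2 values here, and a change is the mean of TGC3 minus that of TG ± standard error (limma, 3 arrays a group), with p adjusted by Benjamini-Hochberg over all 16390 genes tested. Levels of different probes are not comparable with each other. On the arrays, 58.9% to 63.8% of probes lay well above background, and precision is limited by having 6 arrays. Each genotype had a slide and a scan of its own, so a slide effect and a genotype effect cannot be told apart here. Cxcr3 was lower in TGC3 on every array (log2 change -11.35 ± 0.12, adjusted p = 9.66e-07 with limma). Mki67, a marker of dividing cells, was higher (1.07 ± 0.20, adjusted p = 0.0149). CD8 T cell markers were well above background on every array, with Cd8a at 7.27 to 7.44 in TGC3 and 7.36 to 7.65 in TG.

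All 41 centromere and kinetochore genes lay well above background on all 6 arrays and were tested. Of these, 27 rose in TGC3, 0 fell and 14 passed the threshold neither way (limma adjusted p under 0.05). At an unadjusted p under 0.05 the counts were 31 and 0. Over all genes, 16.6% were called higher and 9.44% lower (2720 and 1548 genes; 1800 and 4764 with arrays centred on the median, which moved the median change of all genes to -0.18 and left 23 of the 41 genes higher and 0 lower). The median change of the 41 genes was 0.75, a 1.69-fold difference, against -0.01 over all genes tested. It was 0.31 among the 21 of these genes above the median signal, of which 11 rose when such genes alone were tested. It was 0.47 with normexp background correction of unrepaired spots. In that setting 0 of the 41 genes passed the adjusted threshold in limma (8 were higher at an unadjusted p under 0.05, and 0 lower). With the 7 aberrant local backgrounds of TG 3 replaced, normexp gave 29 of the 41 genes higher and 0 lower (median change 0.60). In the fit given first, the increase passed and was at least 2-fold for 17 of the 41 genes, which held for 3.12% of all genes. In 33 of 41 genes all 3 TGC3 values lay above all 3 TG values, against 24.3% of all genes, and in 1, Zw10, all lay below, against 22.4% of all genes. The changes ran from -0.13 (Zw10) to 2.14 (Cenpf). In RNA from a mixed sample, more cells of a dividing type and more RNA per cell cannot be told apart.

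**Figure D1:**
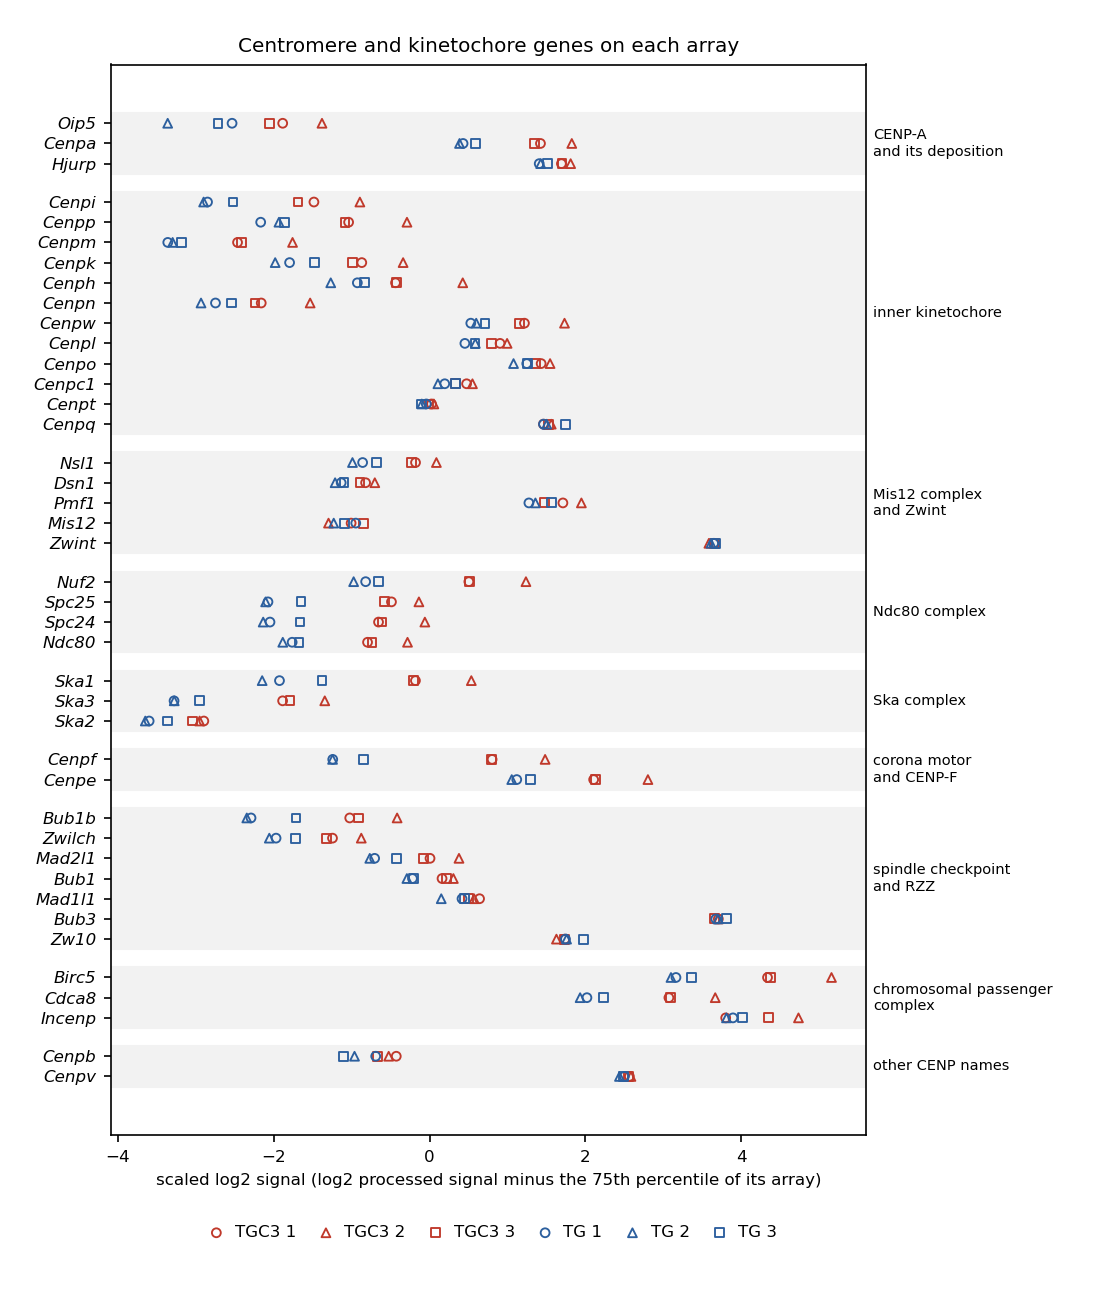
Scaled log2 value (horizontal axis) of each gene on the 3 TGC3 arrays (red) and the 3 TG arrays (blue), with genes grouped by complex; only positions along a row can be compared. Red and blue do not overlap for all Ndc80 complex genes, while the 6 points of Zwint and Bub3 lie on each other.

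The genes that rose were looked up in the RefSeq promoter table (GRCm38.p6), which covers 250 bases before to 50 bases after a gene's start and held 40 entries for 36 of the 41 genes (none for Incenp, Nsl1, Ska1, Spc24 and Zwilch). Searched on both strands were TTTGAA and TTCGAA, the letters of the cell cycle genes homology region at which late cell cycle promoters are bound, and CCAAT, the CCAAT box. Shown are the 9 of the 23 genes that rose and had an entry with a homology region wholly within 30 bases of the start, a distance chosen after the positions were seen. Each stretch runs from 90 bases before to 30 bases after the start, 5′ to 3′ on the gene's strand. Capitals mark the homology region, which reads TTCAAA on the other strand, and the CCAAT box, which reads ATTGG there. They overlap in Cdca8 and Cenpw.
Cenpf, chr1:189688057-189688176, minus strand: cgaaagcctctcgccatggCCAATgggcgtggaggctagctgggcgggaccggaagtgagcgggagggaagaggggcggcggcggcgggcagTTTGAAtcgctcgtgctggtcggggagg
Cdca8, chr4:124936888-124937007, minus strand: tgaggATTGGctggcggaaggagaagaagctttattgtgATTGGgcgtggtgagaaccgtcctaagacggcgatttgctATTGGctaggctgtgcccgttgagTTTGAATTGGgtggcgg
Bub1, chr2:127831830-127831949, minus strand: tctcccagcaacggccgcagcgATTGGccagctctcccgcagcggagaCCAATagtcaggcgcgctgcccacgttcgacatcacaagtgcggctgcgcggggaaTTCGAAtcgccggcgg
Cenpa, chr5:30666796-30666915, plus strand: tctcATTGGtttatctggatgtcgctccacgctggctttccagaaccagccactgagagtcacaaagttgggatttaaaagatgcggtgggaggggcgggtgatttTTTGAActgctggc
Hjurp, chr1:88277550-88277669, minus strand: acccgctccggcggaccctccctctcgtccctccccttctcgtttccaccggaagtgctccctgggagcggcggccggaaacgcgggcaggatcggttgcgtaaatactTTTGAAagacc
Spc25, chr2:69206184-69206303, minus strand: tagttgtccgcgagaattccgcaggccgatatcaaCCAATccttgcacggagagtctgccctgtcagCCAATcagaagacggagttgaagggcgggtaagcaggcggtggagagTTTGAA
Cenpn, chr8:116921650-116921769, plus strand: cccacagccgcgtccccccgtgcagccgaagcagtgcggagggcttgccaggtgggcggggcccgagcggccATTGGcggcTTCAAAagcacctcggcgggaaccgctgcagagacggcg
Ska3, chr14:57826134-57826253, minus strand: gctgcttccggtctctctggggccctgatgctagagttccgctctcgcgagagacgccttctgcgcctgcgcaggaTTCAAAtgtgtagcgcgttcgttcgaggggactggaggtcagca
Cenpw, chr10:30200511-30200630, minus strand: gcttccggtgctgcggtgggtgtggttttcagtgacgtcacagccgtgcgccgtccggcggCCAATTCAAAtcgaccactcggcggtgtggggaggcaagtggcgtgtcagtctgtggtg

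The homology region began 3, 14, 15, 17, 20 and 25 bases after the start in Cenpf, Cdca8, Bub1, Cenpa, Hjurp and Spc25, and 9, 14 and 25 bases before it in Cenpn, Ska3 and Cenpw. Within 30 bases of the start it was in 9 of 25 promoter entries of genes that rose (36%), in 0 of 15 entries of genes that passed neither way, and in 3.13% of all 32851 entries in the table. By gene it was in 9 of 23 and 0 of 13, as some genes had several entries. The distance was chosen with these positions known, so the contrast is a description and no test. Over the whole 300 bases the counts were 14 of 25 (56%), 4 of 15 (26.7%) and 19.2% of all entries. The CCAAT box was in 18 of 25 (72%), 8 of 15 (53.3%) and 37.4%. The E2F site (TTT, then CC, GG, GC or CG, then CGC, on either strand), which many replication genes carry, was in 3 of 25 entries (12%), 1 of 15 (6.67%) and 2.26%. These are matches of letters and show no binding. Genes with the homology region near the start had changes from 0.29 (Hjurp) to 2.14 (Cenpf), and Nuf2 and Birc5, which rose 2.96-fold and 2.67-fold, had none in the 300 bases.

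The 3 genes of the set grouped as the centromeric histone and its loading all rose. Cenpa encodes CENP-A, and its probe (NM_007681, mm9, chr5:30976729-30976788) read 1.42, 1.83 and 1.35 on TGC3 1 to TGC3 3, against 0.43, 0.38 and 0.59 on TG 1 to TG 3. The groups did not overlap, and the change was 1.06 ± 0.14, or 2.09-fold (limma adjusted p = 0.00526). Oip5 encodes a subunit of the Mis18 complex that primes centromeres for new CENP-A. It read -1.89, -1.38 and -2.06 in TGC3 and -2.54, -3.36 and -2.72 in TG. Among these 3 genes its TG arrays were the most spread, though they stayed below TGC3. Its change was 1.10 ± 0.27 (limma adjusted p = 0.0301). Hjurp, the chaperone that deposits CENP-A, rose by far less, 1.22-fold (0.29 ± 0.07, limma adjusted p = 0.0258). The call of Oip5 was lost on leaving out TGC3 1, TGC3 2, TG 2 or TG 3 (limma adjusted p up to 0.0660), and that of Hjurp on leaving out TGC3 1, TGC3 3, TG 1 or TG 2 (up to 0.0881). Both calls were also lost with no filter on dim probes, and that of Hjurp under median centring.

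Of the 12 genes of the inner kinetochore network, 7 rose, 0 fell and 5 were not called; the median change was 0.76. The largest change was that of Cenpi (NM_145924, mm9, chrX:130897028-130897087), which with Cenph and Cenpk forms a subcomplex needed to recruit the outer kinetochore. Cenpi read -1.48, -0.89 and -1.69 in TGC3 and -2.85, -2.90 and -2.52 in TG, a change of 1.40 ± 0.22 (limma adjusted p = 0.00866). Cenpp, of the CENP-O group, read -1.04, -0.29 and -1.09 in TGC3 and -2.17, -1.93 and -1.86 in TG. Neither gene's groups overlapped, and TGC3 2 was highest for both. The change of Cenpp was 1.18 ± 0.23 (limma adjusted p = 0.0152), and it did not pass without TG 1 (0.0516). Cenpm and Cenpk rose 2.10-fold and 2.03-fold, Cenpn, a reader of CENP-A nucleosomes, and Cenpw, a histone-fold partner of CENP-T, 1.70-fold and 1.69-fold, and Cenpl, the partner of CENP-N, 1.28-fold. Cenpk did not pass without TG 1 or TG 2, Cenpl without TGC3 1, TG 1 or TG 2, Cenpw without any 1 TG array, and Cenpn without any 1 array other than TGC3 2 (limma adjusted p up to 0.0584, 0.0720, 0.0684 and 0.122). Cenpn also lost its call under quantile normalization, cyclic loess normalization, median centring and the deposited normalized values, Cenpl under median centring, and Cenpn, Cenpl and Cenpw with no filter on dim probes.

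The other 5 inner kinetochore genes did not pass. Cenph missed the threshold (0.87 ± 0.26, limma adjusted p = 0.0552), with groups that did not overlap and TGC3 2 at 0.43 against -0.44 and -0.42 on the other TGC3 arrays. Without TGC3 2 its change was 0.58 and passed (adjusted p = 0.0446). Cenpo (0.25 ± 0.08, adjusted p = 0.0719) and Cenpc1, which encodes the scaffold that links CENP-A chromatin to the Mis12 complex (0.24 ± 0.09, adjusted p = 0.104), had small positive changes. Cenpt, the other anchor of the Ndc80 complex, and Cenpq had 95% intervals of -0.03 to 0.24 and -0.28 to 0.17 on the log2 scale.

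In the outer kinetochore the Ndc80 complex, which binds the microtubule, rose as a whole. All 4 subunits rose by at least 2-fold, with changes from 1.17 to 1.57. Nuf2 (NM_023284, mm9, chr1:171428648-171428707) read 0.50, 1.24 and 0.51 in TGC3 and -0.82, -0.97 and -0.65 in TG, a change of 1.57 ± 0.22 (limma adjusted p = 0.00597). Spc25 read -0.49, -0.14 and -0.57 in TGC3 and -2.07, -2.10 and -1.65 in TG, a change of 1.54 ± 0.17 (limma adjusted p = 0.00329). The lowest TGC3 value lay above the highest TG value by 1.16 for Nuf2 and 1.08 for Spc25. Spc24 rose 2.84-fold and Ndc80, which encodes the subunit that contacts the microtubule, 2.25-fold. The 4 calls held without any 1 array.

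The Ndc80 complex docks to the Mis12 complex. Of the 4 Mis12 complex subunits and Zwint, a partner of the checkpoint scaffold KNL1, 2 rose, 0 by as much as 2-fold, and 3 did not pass. Nsl1 read -0.18, 0.09 and -0.23 in TGC3 and -0.86, -0.99 and -0.69 in TG, a change of 0.74 ± 0.12 (limma adjusted p = 0.00910). Dsn1 read -0.82, -0.70 and -0.89 in TGC3 and -1.13, -1.21 and -1.10 in TG, a change of 0.34 ± 0.07 (limma adjusted p = 0.0213). Both rose with groups that did not overlap, but the Dsn1 call was lost on leaving out TGC3 1, TG 1 or TG 2 (limma adjusted p up to 0.0737), and under median centring and with no filter on dim probes. Pmf1 had a change of 0.31 ± 0.14 and Mis12 one of 0.04 ± 0.14. Zwint read 3.65, 3.59 and 3.66 in TGC3 and 3.65, 3.61 and 3.68 in TG, with a 95% interval of the change from -0.15 to 0.13.

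All 3 genes of the Ska complex, which tracks microtubule ends from the kinetochore, rose. Ska1 read -0.18, 0.54 and -0.20 in TGC3 and -1.93, -2.15 and -1.38 in TG, a change of 1.87 ± 0.27, or 3.66-fold (limma adjusted p = 0.00701). Ska3 (NM_198605, mm9, chr14:58426035-58426094) read -1.89, -1.35 and -1.79 in TGC3 and -3.28, -3.28 and -2.96 in TG, a change of 1.50 ± 0.17 (limma adjusted p = 0.00352). In both, every TGC3 array stood more than 1.0 above every TG array on the log2 scale. Ska2 rose 1.49-fold (0.57 ± 0.09, limma adjusted p = 0.00959) and lost its call under cyclic loess normalization.

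Cenpf and Cenpe, grouped here under the fibrous corona, the outermost layer that forms before microtubules attach, both had higher transcripts. Cenpf (NM_001081363, mm9, chr1:191465934-191465993) read 0.80, 1.48 and 0.79 in TGC3 and -1.24, -1.25 and -0.85 in TG. A gap of 1.64 separated the lowest TGC3 from the highest TG value, and the 4.41-fold change was the largest of the 41 genes (2.14 ± 0.22, limma adjusted p = 0.00287). CENP-F is a coiled-coil protein that accumulates late in the cell cycle. Cenpe encodes the kinesin that carries chromosomes to the spindle equator. It read 2.11, 2.80 and 2.13 in TGC3 and 1.12, 1.06 and 1.30 in TG, a change of 1.19 ± 0.20 (limma adjusted p = 0.0105). All 3 of its probes rose (1.19 to 1.50).

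**Figure D2:**
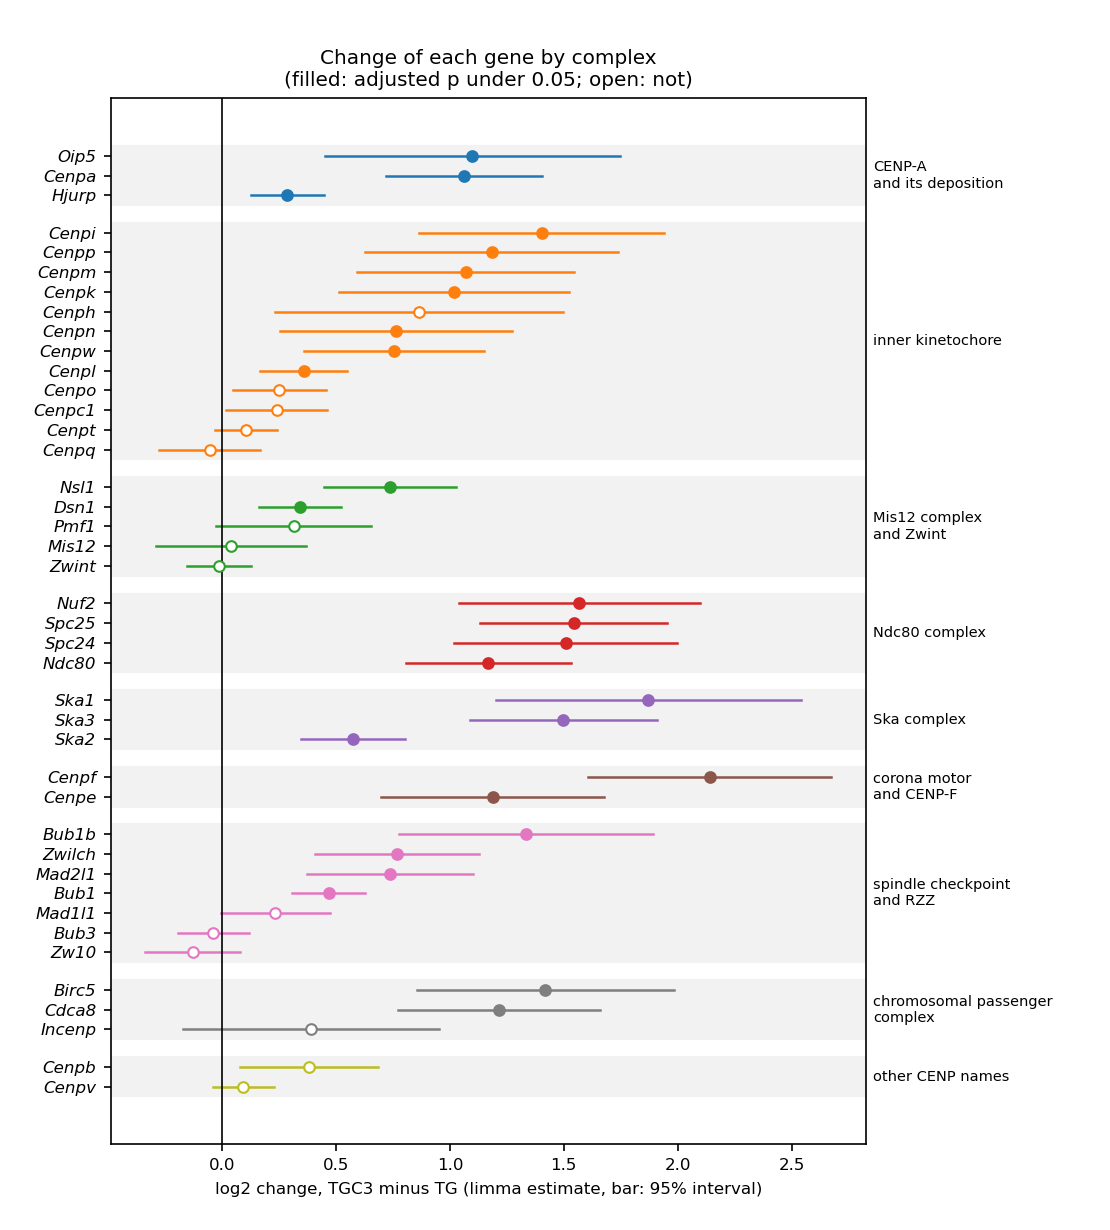
Change of each gene (log2, TGC3 minus TG) with its 95% interval from limma, grouped by complex; filled points passed an adjusted p of 0.05. All Ndc80 and Ska genes are filled, while the Mis12 group, the checkpoint group and the inner kinetochore hold both filled and open points.

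Of 7 genes of the spindle checkpoint and of the RZZ complex that brings it to kinetochores, 4 rose, 0 fell and 3 did not pass. Bub1b encodes BUBR1, a part of the inhibitor of the anaphase-promoting complex. It read -1.02, -0.42 and -0.91 in TGC3 and -2.29, -2.35 and -1.71 in TG, a change of 1.33 ± 0.23, or 2.52-fold (limma adjusted p = 0.0110). Zwilch, of the RZZ complex, read -1.25, -0.88 and -1.32 in TGC3 and -1.97, -2.06 and -1.72 in TG, a change of 0.77 ± 0.15 (limma adjusted p = 0.0150). Mad2l1, which encodes the checkpoint protein MAD2, rose 1.67-fold and the kinase gene Bub1 1.38-fold by its brightest probe. Zwilch and Mad2l1 did not pass without TG 1 or TG 2 (up to 0.0523 and 0.0606). Bub3, which encodes the adaptor of both BUB1 and BUBR1, read 3.71, 3.71 and 3.66 in TGC3 and 3.68, 3.70 and 3.81 in TG. Its groups overlapped, with a 95% interval of the change from -0.19 to 0.12. Mad1l1 (0.23 ± 0.10, limma adjusted p = 0.132) and Zw10 (-0.13 ± 0.09, adjusted p = 0.306) did not pass either.

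In the chromosomal passenger complex, which corrects faulty attachments, 2 of 3 genes rose. Birc5, which encodes survivin (NM_001012273, mm9, chr11:117716959-117717018), read 4.34, 5.16 and 4.38 in TGC3 and 3.16, 3.10 and 3.36 in TG, a change of 1.42 ± 0.23 (limma adjusted p = 0.00945). Cdca8, which encodes borealin, read 3.07, 3.67 and 3.09 in TGC3 and 2.02, 1.93 and 2.23 in TG, a change of 1.22 ± 0.18 (limma adjusted p = 0.00734). Incenp, which encodes the scaffold of the complex, read 3.80, 4.74 and 4.35 in TGC3 and 3.90, 3.81 and 4.02 in TG. TGC3 1 lay just below every TG value, and the change of 0.39 ± 0.23 did not pass (limma adjusted p = 0.258). Without TGC3 1 the change was 0.64 and passed (adjusted p = 0.0392).

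The remaining names, Cenpb, which binds a sequence box in satellite repeats, and Cenpv, did not pass. Cenpb read -0.43, -0.52 and -0.66 in TGC3 and -0.69, -0.96 and -1.10 in TG, groups that lay 0.03 apart (0.38 ± 0.12, limma adjusted p = 0.0695), and passed without TG 1 (adjusted p = 0.0374). Cenpv read 2.57, 2.59 and 2.55 in TGC3 and 2.50, 2.44 and 2.49 in TG (0.09 ± 0.05, limma adjusted p = 0.253).

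Partners were also set against each other on the same array, where a shift common to the whole array cancels, though one that depends on signal does not. The 6 pairs were chosen with the calls known, and 5 of them set a gene that rose against one that was not called, so the values describe the calls again and are no further test. The Bub1b minus Bub3 difference was -4.48 ± 0.31 in TGC3 and -5.85 ± 0.28 in TG (SD, n = 3), which is 1.37 larger in TGC3. The corresponding shift was 1.30 for Ska1 against Ska2, 1.03 for Birc5 against Incenp, 0.51 for Bub1 against Bub3 and 0.50 for Mad2l1 against Mad1l1. Across the neighbouring Ndc80 and Mis12 complexes, it was 1.13 for Ndc80 against Mis12. An exact permutation test of 3 arrays against 3 cannot give a p below 0.1.

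Several probes read the same gene in part of the set. Of the 68 probes, 60 passed the filter on dim probes, and in a fit of all 25103 kept probes 40 of them were higher, 1 lower and 19 neither, where 13.7% of all probes were higher. Of 15 genes with several tested probes, 12 had the same call from all their probes, among them Zwint and Bub3, whose 3 tested probes each passed neither way. For Bub1 the brightest probe (NM_001113179, mm9, chr2:127626326-127626385) gave 0.47 ± 0.07 and the other probe (NM_009772, mm9, chr2:127626988-127627047) gave 1.64 ± 0.22, both higher (limma adjusted p = 0.00727 and 0.00593 over probes). The size of the Bub1 change thus differs by probe. The probes of Cenpk differed in direction: those of NM_021790 gave 1.02 and 1.07, while that of the cDNA clone AK045195 (mm9, chr13:105019807-105019866) was lower, at -0.37 ± 0.08 (limma adjusted p = 0.0201). Cenph and Cenpc1, which did not pass by their brightest probe, each had a second probe, of a cDNA clone, that was higher (0.40 and 0.82, limma adjusted p = 0.0326 and 0.0179).

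**Figure D3:**
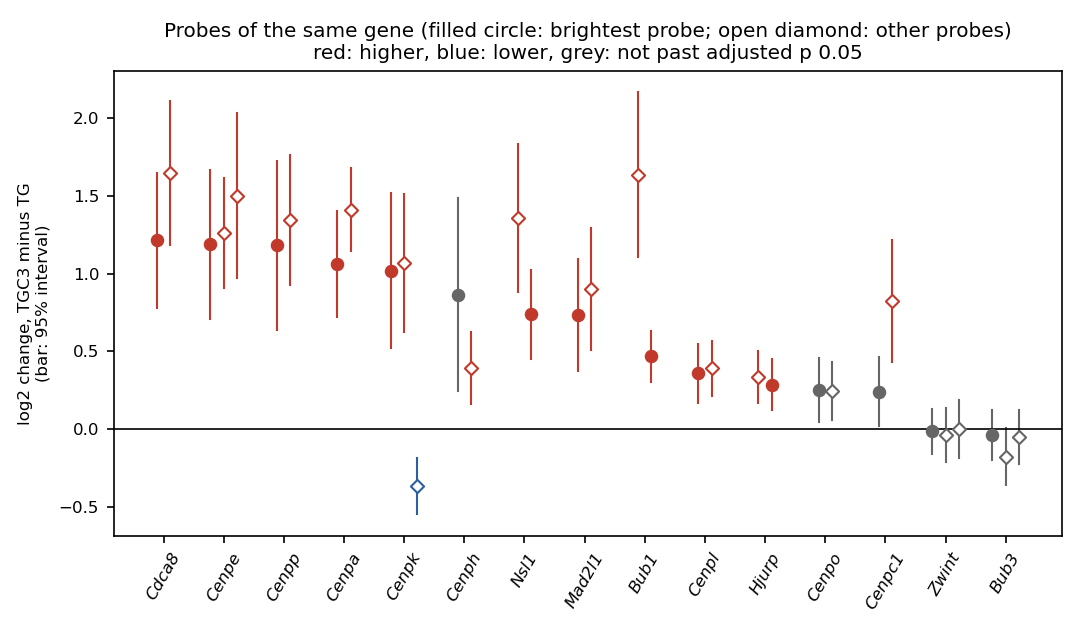
Change (log2, TGC3 minus TG, with 95% interval) of each tested probe for the 15 genes with several; filled circles are the brightest probes, red is higher, blue lower and grey not past an adjusted p of 0.05. Probes of Bub1 differ in size, and 1 of 3 probes of Cenpk is lower.

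Other genes of the centromere, kinetochore and checkpoint gave a mixed picture. Of 46 on the array, 43 were tested, of which 18 rose, 1 fell and 24 were not called, and the median change was 0.12, against 16.6% of all genes higher and 9.44% lower. The 6 largest changes past the threshold were those of Plk1, a mitotic kinase (2.04 ± 0.20), Aurkb, the kinase of the chromosomal passenger complex (1.89 ± 0.21), Kif2c, a microtubule depolymerase (1.86 ± 0.22), Sgo2a and Sgo1, shugoshins that guard cohesion (1.72 ± 0.18 and 1.55 ± 0.19), and Knl1, the checkpoint scaffold (1.48 ± 0.23), with limma adjusted p from 0.00276 to 0.00874. Aurkb read -0.49, 0.15 and -0.53 in TGC3 and -2.28, -2.33 and -1.94 in TG, above its partner Incenp in size of change. Mis18a, a CENP-A loading gene, rose 1.39-fold. Of the remaining inner kinetochore subunits, Cenps and Cenpu rose 1.73-fold and 1.51-fold, while Cenpx and Itgb3bp had changes of -0.03 ± 0.07 and 0.02 ± 0.23. Nde1, a dynein regulator, was the 1 gene that fell (-0.36 ± 0.08, limma adjusted p = 0.0203), and it did not pass without TGC3 3 or TG 1 or with no filter on dim probes.

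The 3 TGC3 arrays were not alike. The median of the 41 genes lay 0.64, 1.04 and 0.56 above the TG mean on TGC3 1, TGC3 2 and TGC3 3, and -0.04, -0.11 and 0.15 from it on TG 1 to TG 3, while over all genes it lay between -0.01 and 0.01 on every array. TGC3 2 was the highest of the 6 arrays for 33 of the 41 genes, which it was for 23.9% of all genes. Without TGC3 2, 27 of the 41 genes rose, 26 of them among the 27 above, with a median change of 0.58. Leaving out any 1 array left 18 (without TG 2) to 27 genes higher and 0 lower, and 17 of the 27 genes passed without any 1 array.

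Markers of other cells also moved between the groups. Of 8 neutrophil markers 4 were tested, 2 of them higher and 0 lower. Their summed signal, in units of the array's 75th percentile, was 1.63 to 8.03 in TGC3, highest on TGC3 2, and 0.110 to 0.173 in TG. As levels differ by probe, such sums are weighted to the brightest probes and do not measure an amount of cells. The brightest was S100a9 for neutrophil markers in TGC3, Cd79b for B cell, Itgax for dendritic cell and Gzma for NK cell markers. S100a8 was at least 28.2-fold higher, as it was well above background on no TG array, while Elane was on no array and Ngp, Camp and Ltf were on 1 TGC3 array each. Of 5 of 8 macrophage and monocyte markers tested, 2 were higher and 0 lower (sum 1.04 to 3.15 in TGC3, highest on TGC3 2, and 0.670 to 0.808 in TG). Of 5 of 6 B cell markers, 3 were higher and 1 lower (sum 6.08 to 6.54 and 6.22 to 7.52, with Pax5 on no array). Ms4a1 was at least 3.52-fold higher, while Cd22 was lower (-0.92 ± 0.22, limma adjusted p = 0.0294). Cd79b, the brightest of these probes, did not pass (-0.03 ± 0.11, limma adjusted p = 0.844). Bounds are means of the brighter group against the lowest signal above background on each array of the dimmer. All 7 CD8 T cell markers were tested, 0 higher and 2 lower, with sums of 665 to 720 in TGC3 and 729 to 818 in TG. The other lists gave 2 higher and 0 lower of 4 dendritic cell markers tested (sum 14.3 to 23.7 and 18.4 to 20.9), 2 and 0 of 3 endothelial (0.738 to 0.803 and 0.606 to 0.692), 1 and 0 of 3 plasma cell (2.36 to 2.62 and 2.33 to 2.70), and 0 and 0 of 5 NK cell (63.1 to 134.0 and 72.2 to 93.1), 3 CD4 T cell, 1 erythroid, 1 cholangiocyte, 1 hepatic stellate and 0 hepatocyte markers. The part of these cells in the kinetochore changes was not tested.

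**Figure D4:**
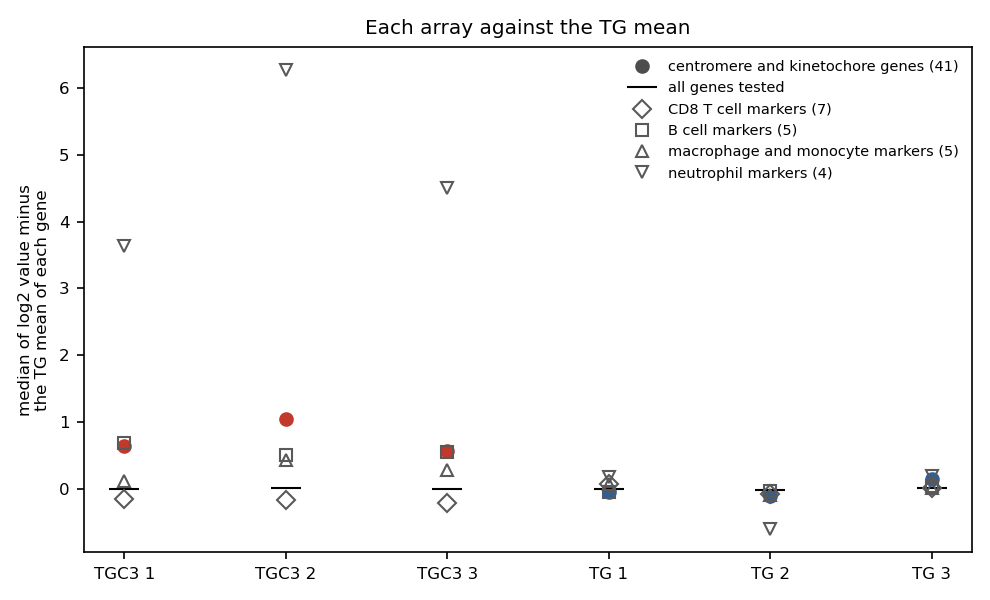
Median over genes of the log2 value minus that gene's TG mean, on each array, for the 41 centromere and kinetochore genes (filled; red TGC3, blue TG), all genes tested (bars) and markers of 4 cell types (open symbols). The 41 genes lie at 0.64, 1.04 and 0.56 on the TGC3 arrays, and neutrophil markers are also highest on TGC3 2.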

How the data were processed

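The 6 arrays (Agilent, Cy3, 45018 spots each) were scanned into intensity values that the authors deposited; the processed signal had been background-subtracted and detrended array by array, per the file headers, which name Feature Extraction 10.7.3.1 (10.7.1.1 in the submitters' processing notes). The deposited matrix of normalized log2 values, whose columns share 1 distribution, was used as an alternative. Of 41174 distinct probes, 11 had outlier marks and were left out. Scaling subtracted each array's 75th percentile from the log2 processed signal, and a probe was kept if 3 or more arrays had it well above background (25103 probes). Names were updated from RefSeq (27664 probes by accession, 5585 by symbol, 471 by synonym; 7443 kept the file's name), while the 41 genes were matched by the file's own name. A gene took the values of its brightest kept probe. TGC3 was compared with TG using limma 3.58.1 (lmFit and eBayes) in two-sided tests (R 4.3.3, statmod 1.5.0, data.table version 1.17.8) at a Benjamini-Hochberg adjusted p under 0.05. The procedure was tested on simulated data. Promoters and figures used Python 3.11.15, pandas 2.3.3, numpy 2.4.6 and matplotlib 3.10.9. Probes carry the mm9 positions that the files give, promoters those of GRCm38.p6.

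The genes, the other gene lists and the 6 comparisons of partners were chosen with earlier results of these data known. By the naming rule every gene is accounted for, with the value on every array for the 2 largest changes past the threshold in each complex and for complexes with none. Array values of Zwint, Bub3, Incenp and Cenph were added after their values were seen. Alternatives were quantile, median and cyclic loess normalization, the deposited matrix, normexp with an offset of 50 with and without replacement of local backgrounds more than 10 times their array's median (7 spots of TG 3), other filters and probes, trend and robust eBayes, array weights, a block for the replicate number, and fits without 1 of the arrays. A few single-gene results are not reported here. The arrays give no counts, so depth is the share of probes above background.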

Additional observations from a re-analysis of the deposited data

How the results depend on the processing

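The number of the 41 genes higher in TGC3, 27, was 19 to 30 under 12 of the 14 alternatives other than left-out arrays, with 0 lower under each. It was 0 with normexp on unrepaired backgrounds, which also left 0 other pathway genes higher, 0 lower, and 0 genes higher and 1 lower of all (limma, against 2720 and 1548), with a median change of 0.47 for the 41 genes. At an unadjusted p under 0.05 that setting gave 8 of the 41 genes higher and 0 lower, 7 other pathway genes higher and 0 lower, and 507 of all genes (6559 in the setting reported). With the 7 aberrant backgrounds of TG 3 replaced, 29 were higher, the 27 among them. Among the 21 genes above the median signal, 11 were higher (median 0.31), as were 7 other pathway genes and 735 of all. Median centring moved the median of all genes to -0.18 and that of no filter to 0.13. Centring gave 1800 genes higher and 4764 lower, 8 other pathway genes lower and 23 of the 41 higher. No filter gave 578 genes lower and 0 other pathway genes lower, array weights 2413 genes lower, and the most variable probe 2 other pathway genes lower. Without any 1 array, 1752 to 2356 genes were higher, 573 to 1505 lower, and 0 to 1 other pathway genes lower. Under unrepaired normexp, without passing, the sign turned for Cenpm (-0.062), Cenpn (-0.096), Ska2 (-0.47), Cenpu (-0.33) and Spdl1 (-0.36). With only the 7 backgrounds of TG 3 replaced, Cenpm, Cenpn and Ska2 were called higher again. How these backgrounds act on single genes was not tested.

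Samples of the same number did not deviate together (correlations of -0.003, -0.077 and -0.099 across genes). Those of different number gave -0.015 to 0.104. With 3 arrays a group such correlations cannot decide whether the numbers pair samples. With the replicate block, which ended the calls of Cenpk, Cenpl, Cenpn, Dsn1, Hjurp, Mad2l1, Oip5, Zwilch and Nde1, 19 of the 41 genes and 1795 of all were higher, 553 lower, and 0 other pathway genes lower.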
